A study of Homo sapiens with 12 samples.

Results

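Tau carrying the lysine-to-glutamine substitution K174Q (Tau-K174Q) was compared with wild-type tau (Tau-WT) across all 1676 genes of the deposited expression table. The comparison used 6 of the 12 libraries of the study, Tau-K174Q libraries 4, 5 and 6 and Tau-WT libraries 1, 2 and 3, chosen by the construct named in each column of the table. All were made from the SH-SY5Y line, an established culture of human neuroblastoma widely used as a neuron-like model, with RNA extracted 24 h after transfection. The other 6 libraries came from the same line transfected with Tau-S199E (libraries 10, 11 and 12) or with the construct carrying both substitutions, Tau-K174Q:S199E (libraries 16, 17 and 18). Each group was therefore transfected with a tau construct, and no untransfected cells were analysed here. The cells keep their own tau gene. The sources used here do not give the promoter of the constructs, the tau isoform, the transfection efficiency or whether libraries came from separate cultures. The p-values below therefore measure library-to-library spread only, and that spread may be technical.

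Tau, the product of MAPT, binds along microtubules through repeats near its carboxyl end, and a proline-rich stretch before the repeats carries many of the sites that kinases phosphorylate. Lysines of tau can be acetylated, which removes their positive charge, and glutamine is commonly used as a mimic of an acetylated lysine. Acetylation of the lysine that K174Q replaces has been described in tau from Alzheimer's disease brain. Glutamate in place of a serine is in turn used as a mimic of phosphorylation.

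The substituted positions lie in the proline-rich region. The reference codons below, from the human transcript MAPT-215 of GENCODE 29 (GRCh38, plus strand of chromosome 17), run from codon 168 to codon 205 of a reading frame of 441 codons, counted from the initiator methionine. They are shown to place the substitution K174Q beside S199E, and the capitals mark the reference codons of the replaced lysine (AAA) and the replaced serine (AGC). The sequence is the reference, not a read of the constructs.
MAPT-215 codons 168 to 205: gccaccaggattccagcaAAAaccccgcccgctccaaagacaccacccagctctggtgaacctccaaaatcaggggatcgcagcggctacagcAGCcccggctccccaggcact
Of the 5 annotated coding transcripts examined, MAPT-215 and the 410-codon MAPT-208 have lysine and serine at these positions, whereas the 412-, 758- and 776-codon frames do not.

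The values are standardised scores: each gene was centred at 0 and scaled to an SD of 1 over the 12 libraries before deposit, so a value states how many SDs of that gene a library lay above or below the gene's mean. A difference of 2 SD units in a strongly changing gene and in a weakly changing one look the same, and neither expression levels nor fold changes nor sequencing depth can be recovered. The precision that depth gives is therefore unknown. The table is also not a random set of genes. It appears to hold genes selected for an effect, since 1625 of the 1676 had an adjusted p under 0.05 for the interaction, the difference between the K174Q effect with and without S199E. The sign of the Tau-K174Q minus Tau-WT difference was opposite to that of the interaction in 1675 genes. The direction of almost every difference below was therefore fixed by which cluster of the table a gene belongs to. It is a description, not an independent finding. The interaction also contains this difference with its sign reversed, so choosing genes by it would favour large differences. Sizes, counts of genes without overlap and p-values below therefore describe a selected set as well. Markers of the adrenergic identity of SH-SY5Y cells (0 of 42 listed genes) and of Schwann or glial cells (0 of 14) were not among the genes of the table, so the labelled line could not be checked against them.

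No gene passed an adjusted p of 0.05 between Tau-K174Q and Tau-WT in limma's linear model over the 12 libraries (0 of 1676, 0.0%), although the 3 libraries of one construct lay wholly above or below the 3 of the other in 1353 genes (80.7% of the table). The lowest adjusted p was 0.066, shared by 304 genes, and 951 genes lay under 0.1. At an unadjusted p under 0.05 there were 870 genes (51.9%), 543 higher (32.4%) and 327 lower (19.5%) with Tau-K174Q. The count differed between fits. With only the 6 libraries of the compared constructs, 819 genes (48.9%) passed, 464 higher (27.7%) and 355 lower (21.2%). Without Tau-K174Q:S199E library 18, 675 genes (40.3%) passed, 554 of them also among the 819, and without library 16 of the same construct 48 passed. With limma's moderated variances, 1004 genes (59.9%) passed, 585 higher (34.9%) and 419 lower (25.0%). Moderation pools the variances of all genes, which had been scaled to the same SD before deposit. Unlike the ordinary fit, this count therefore depends on that scaling. The plot of genes called by fit shows these counts. All of these shares are of a table that appears selected for a contrast holding this same difference. The adjustment covered only its genes, so the shares do not extend to all expressed genes.

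**Figure D1:**
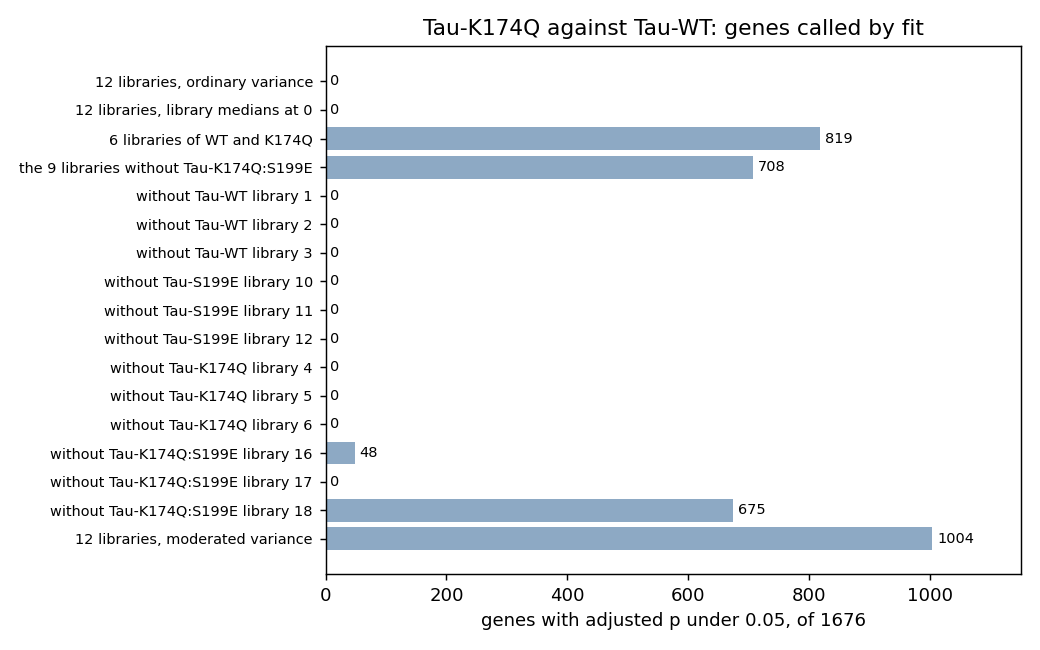
Number of genes, of 1676, with an adjusted p under 0.05 for Tau-K174Q against Tau-WT, one bar for each fit or left-out library. The fit over 12 libraries called 0 genes, that on the 6 libraries of the compared constructs 819, and that without Tau-K174Q:S199E library 18 called 675.

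The spread between libraries differed between constructs, and its part in these counts was not tested. The median SD of a gene over 3 libraries was 0.343 with K174Q, 0.469 in Tau-WT, 0.650 with S199E and 0.888 with both substitutions. Tau-K174Q had the smallest SD of the 4 constructs in 866 genes, and the double construct the largest in 975. The median standard error of the difference was 0.560 over the 12 libraries and 0.370 over the 6. Library 18 was the farthest from the other libraries of its construct in 3 of the 4 clusters of the table: libraries 16, 17 and 18 averaged 1.18, 0.75 and -0.40 in cluster 2, -0.74, -0.83 and 0.70 in cluster 3, and -0.84, -0.58 and 0.25 in cluster 4. In cluster 1 they averaged 1.15, 0.29 and -0.48, with library 17 between the others. All 12 libraries also set the unit of each gene, and standardising again over the 6 libraries of Tau-K174Q and Tau-WT moved the median absolute difference from 1.32 to 1.58.

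The absolute difference between the Tau-K174Q and Tau-WT means had a median of 1.32 SD units, with quartiles of 1.04 and 1.63 and a range from 0.052 to 2.5. The mean was higher with Tau-K174Q in 885 genes (52.8%) and lower in 791 (47.2%), and the median signed difference was 0.575. Subtracting each library's median moved that value to 0.245, and the share of higher genes to 51.8%. Genes whose libraries did not overlap numbered 730 higher (43.6%) and 623 lower (37.2%). With library medians at 0 they numbered 569 higher and 714 lower, so which direction held more genes turned with this choice. The difference exceeded 2 SD units upward in 59 genes and downward in 15. The Tau-K174Q libraries were not equally far from Tau-WT: library 4 was the farthest in 1025 genes, library 5 in 481 and library 6 in 170.

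The genes with the smallest p among those higher with Tau-K174Q included regulators of signalling and proteins of the Golgi and mitochondria. All 11 named here had an adjusted p of 0.066 in limma over the 12 libraries. All 11 passed in the limma fit on the 6 libraries, with adjusted p between 0.0126 and 0.0291, as did 48.9% of all genes. They were chosen by the p of the same difference, and the 6 libraries are among the 12, so this passing is not separate support. ZZEF1, a zinc finger protein on chromosome 17 (4004445 to 4143020, minus strand, GRCh38), stood at -0.69, -1.42 and -1.77 in Tau-WT libraries 1, 2 and 3 and at 1.36, 1.54 and 0.73 in Tau-K174Q libraries 4, 5 and 6. Its difference of 2.5 SD units (SE 0.35) was the largest of the table in either direction. NKRF, a repressor of NF-kB-responsive promoters on chromosome X (119588337 to 119606443), had values of -1.56, -1.22 and -1.18 with Tau-WT and 1.47, 0.60 and 1.45 with Tau-K174Q. The gap between its highest Tau-WT and its lowest Tau-K174Q library was 1.78, more than the range within either construct.

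AKT1, the serine/threonine kinase at the centre of insulin signalling (chromosome 14, 104769349 to 104795751), stood at -2.00, -1.35 and -0.99 with Tau-WT and at 0.59, 0.83 and 0.93 with Tau-K174Q, a difference of 2.23 (SE 0.33). DYNLT1, a light chain of the microtubule motor dynein, had -1.77, -1.16 and -1.16 against 0.89, 0.81 and 0.86. The Tau-K174Q libraries of DYNLT1 agreed within an SD of 0.04, and its gap of 1.97 was the widest among all genes. ATP2C1, the calcium and manganese pump of the Golgi, was similarly tight: 0.23, 0.23 and 0.22 with Tau-K174Q against -1.19, -1.43 and -1.32 with Tau-WT.

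GNPTAB, which makes the mannose 6-phosphate tag of lysosomal enzymes, stood at 0.77 ± 0.74 (SD, n = 3) with Tau-K174Q and -1.47 ± 0.20 with Tau-WT. Its Tau-K174Q libraries spread from 0.13 to 1.58 without reaching any Tau-WT library. TOMM20, the import receptor of the mitochondrial outer membrane, had a difference of 1.65 (SE 0.29). SUCLA2, a subunit of the citric acid cycle enzyme succinate-CoA ligase, had one of 2.25 (SE 0.42), and METTL17, which acts in assembly of the mitochondrial ribosome, 2.06 (SE 0.42). The sulfotransferase gene CHST2 (2.33) and NIF3L1 (2.16) completed the 11.

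Among the genes lower with Tau-K174Q, the smallest p belonged to GRPEL2, a nucleotide exchange factor for the mitochondrial Hsp70 (chromosome 5, 149345430 to 149354583). It stood at 1.01, 1.44 and 1.16 with Tau-WT and at -0.99, -1.89 and -0.52 with Tau-K174Q, a difference of -2.33 (SE 0.37; adjusted p 0.066 over 12 libraries and 0.026 over 6 by limma). STXBP3, a Munc18 protein that binds syntaxins in membrane fusion (chromosome 1, 108746674 to 108809526), had the lowest difference of the table, -2.34, from 1.88, 1.44 and 0.63 down to -0.91, -0.98 and -1.17. The Tau-K174Q libraries of STXBP3 lay within an SD of 0.13 of each other, whereas its Tau-WT libraries spread over 0.64. TMEM18, a protein of the nuclear envelope, had 0.80, 1.60 and 0.82 against -1.46, -1.20 and -1.06. Its libraries were separated by a gap of 1.86.

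YTHDC1, the nuclear reader of N6-methyladenosine in RNA, had 1.51, 0.96 and 1.43 with Tau-WT and -1.45, -0.67 and -0.47 with Tau-K174Q. RNF168, a ubiquitin ligase recruited to DNA breaks, had a difference of -2.13 (SE 0.43), and PSIP1, a chromatin-binding protein, of -1.76 (SE 0.37). The interferon-inducible GTPase GBP1 (-1.90), the guanine nucleotide exchange factor ARHGEF19 (-1.78) and the Hippo pathway scaffold WWC1 (-2.14) were lower as well, the last with 1 high Tau-WT library (2.31, against 0.85 and 0.51). NSDHL, a cholesterol synthesis enzyme, was nearly constant with Tau-WT (1.27, 1.36 and 1.36) and spread from -0.96 to 0.25 with Tau-K174Q. The remaining 2 of the 12 were the processed pseudogenes RPL12P16 (-1.77) and YBX1P2 (-1.46), whose reads can be confused with those of their parent genes. All 12 passed in limma on the 6 libraries, with adjusted p between 0.021 and 0.0483, as did 48.9% of all genes. These 12 too were chosen by the p of the same difference, so their passing adds no separate support.

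**Figure D2:**
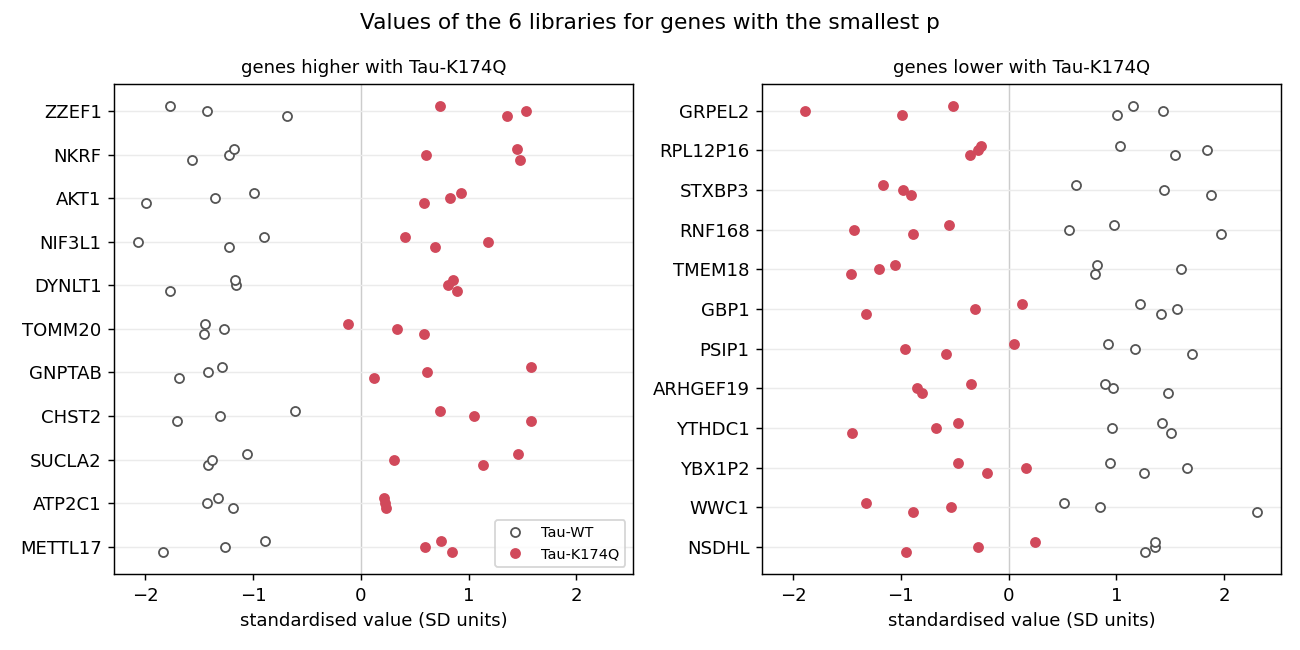
Standardised values (SD units) of each Tau-WT and Tau-K174Q library for 11 genes with the smallest p higher (left) and 12 lower (right) with Tau-K174Q; each point is 1 library. In each gene shown the filled Tau-K174Q points lie on one side of the open Tau-WT points without overlap, with the widest gap for DYNLT1 (1.97).

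The genes with the widest gaps between libraries, chosen after their values were seen, added others in which Tau-K174Q and Tau-WT were both tight. MID1IP1, which promotes fatty acid synthesis by activating acetyl-CoA carboxylase, stood at -1.40, -1.17 and -1.36 with Tau-WT and at 0.95, 0.71 and 0.92 with Tau-K174Q. PEA15, a small phosphoprotein that binds ERK, had 0.96, 0.89 and 0.95 with Tau-WT and -1.0, -1.24 and -0.85 with Tau-K174Q. FMC1, an assembly factor of mitochondrial ATP synthase, had -1.0, -1.03 and -0.62 against 1.13, 1.11 and 1.28. The mitochondrial pyrophosphatase PPA2 differed by 2.18, the RNA phosphatase DUSP11 by 1.98 and the Hippo kinase cofactor MOB1A by 1.96. The gap exceeded 1 SD unit in 297 genes.

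The deposited table divides its genes into 4 clusters, which were made from these values, so the following differences describe the clusters and test nothing. In cluster 3 (353 genes) the difference was the largest: the cluster mean over genes was -1.09 ± 0.18 with Tau-WT (SD, n = 3) and 0.71 ± 0.21 with Tau-K174Q. The 3 Tau-K174Q libraries averaged 0.92, 0.72 and 0.50 there, and 344 of the 353 genes (97.5%) did not overlap. ZZEF1, NKRF, CHST2 and PTBP3, a splicing repressor (2.26), were among the leading genes of this cluster. Cluster 2 (255 genes) was its counterpart below Tau-WT, with means of 0.86 ± 0.15 and -0.62 ± 0.14 and 206 genes (80.8%) not overlapping. STXBP3, GRPEL2, TMEM18, YTHDC1 and the adenylyl cyclase ADCY6 (-2.15) led it.

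Clusters 1 and 4 held genes in which Tau-K174Q stood between Tau-WT and Tau-S199E. Cluster 1 (535 genes) averaged 0.97 ± 0.08 (SD, n = 3) in the Tau-WT libraries, -0.18 ± 0.23 in those of Tau-K174Q and -1.11 ± 0.52 in those of Tau-S199E. CTCF, the insulator protein that organises chromatin loops (chromosome 16, 67562407 to 67639185), had its largest difference, -1.89, with Tau-WT libraries at 1.46, 1.46 and 1.05 and Tau-K174Q libraries at -0.48, -0.61 and -0.60. The cilium gene DZIP1L (-1.86), the ubiquitin and SUMO ligase TOPORS (-1.80), the RNA helicase DDX10 (-1.79) and CDYL2 (-1.78) followed. Cluster 4 (533 genes) averaged -0.93 ± 0.19 in Tau-WT, 0.17 ± 0.20 in Tau-K174Q and 1.15 ± 0.68 in Tau-S199E. It was led by PCNP (1.70), MTARC2 (1.67), a reductase of mitochondria, PERP (1.66), a p53 target of cell junctions, TOMM20 and AHRR (1.64), a repressor of the aryl hydrocarbon receptor.

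In all 4 clusters library 4 was the Tau-K174Q library farthest from Tau-WT and library 6 the nearest. In cluster 4 libraries 4, 5 and 6 averaged 0.35, 0.20 and -0.05, and in cluster 1 -0.42, -0.18 and 0.05. These differences between Tau-K174Q libraries were smaller than the distance of any of them from the Tau-WT libraries, which averaged 0.91, 1.07 and 0.94 in cluster 1 and -0.78, -1.14 and -0.87 in cluster 4. On the 6 libraries, 41.5%, 52.2%, 73.7% and 38.3% of the genes of clusters 1, 2, 3 and 4 passed, against 48.9% of the table.

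**Figure D3:**
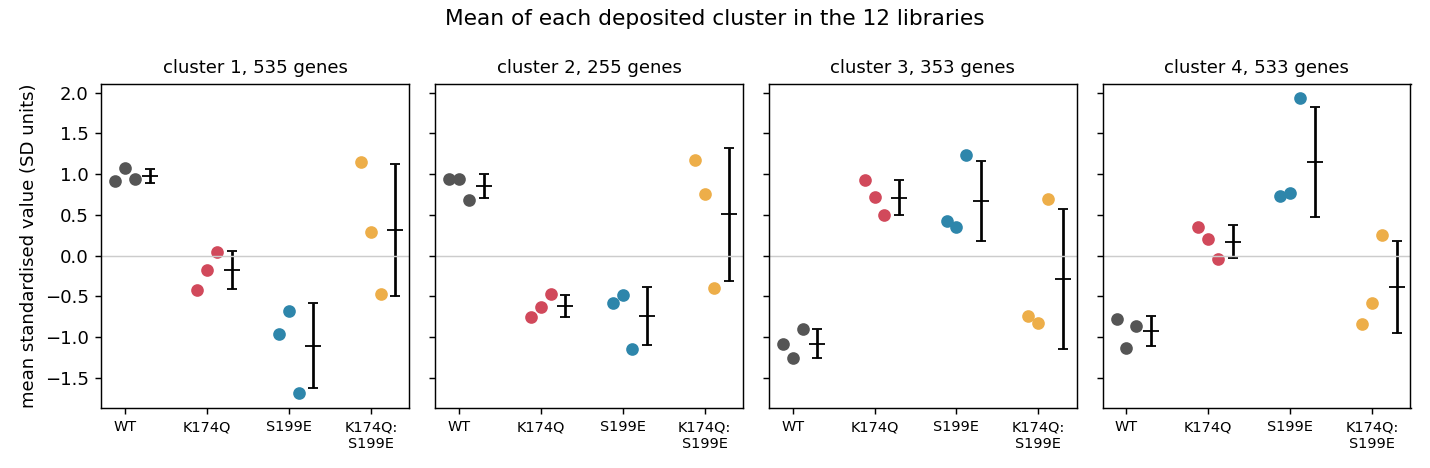
Mean standardised value (SD units) over the genes of each deposited cluster, 1 point per library, with a bar beside them for the mean ± SD of each construct (n = 3). Tau-K174Q lies apart from Tau-WT in each of the 4 clusters, close to Tau-S199E in clusters 2 and 3 and between Tau-WT and Tau-S199E in clusters 1 and 4.

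The differences of Tau-K174Q and of Tau-S199E from Tau-WT share the Tau-WT libraries, so they are set side by side only. They were -1.16 and -2.08 in cluster 1, -1.47 and -1.60 in cluster 2, 1.80 and 1.75 in cluster 3, and 1.10 and 2.08 in cluster 4. Tau-K174Q was farther from Tau-WT than Tau-S199E was in 84 genes of cluster 2 (32.9%), 176 of cluster 3 (49.9%) and none of clusters 1 and 4. The direct contrast of Tau-K174Q with Tau-S199E, in which Tau-WT cancels, passed in limma for 1 gene (0.0597%), with 269 at an unadjusted p under 0.05 and 0 with moderated variances.

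That gene was INO80B-WBP1, a read-through transcript on chromosome 2 (74455088 to 74460884, plus strand) that joins a chromatin remodelling subunit to its neighbour. It stood at -0.52, -0.54 and -0.57 with Tau-K174Q and at 1.64, 1.02 and 2.16 with Tau-S199E, a difference of -2.15 (SE 0.24, adjusted p 0.0303). Its Tau-WT libraries, at -0.53, -0.44 and -0.41, were within 0.08 of Tau-K174Q on average, and it was the only gene whose difference from Tau-WT did not have the sign of its cluster. INO80B itself, which overlaps it, stood at 0.34 with Tau-K174Q, 0.55 with Tau-WT and -1.36 with Tau-S199E. Reads of the overlapping pair could be split by the authors' counting, so both values are uncertain.

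The next smallest p values between the 2 constructs were for genes in which Tau-K174Q was far closer to Tau-WT than Tau-S199E was, and none passed. MRPS34, of the mitochondrial ribosome, stood at -0.28, 0.00 and -0.34 with Tau-K174Q, 0.98 above Tau-WT and 1.61 below Tau-S199E (adjusted p 0.0936). AURKAIP1 (0.78 above Tau-WT), the collagen gene COL8A1 (0.85), the proteasome subunit PSMB6 (0.42) and the complex I subunit NDUFA3 (0.12) had the same order. On the other side were AKR7A2 (-0.58), the replication protein RPA2 (-0.44), LITAF (-0.90), the RNA polymerase III repressor MAF1 (-0.58), ATMIN (-0.78) and the tau kinase MARK2 (-0.73).

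The reverse order, Tau-K174Q farther from Tau-WT than Tau-S199E, was widest in NCBP1, the large subunit of the nuclear cap-binding complex (chromosome 9, 97633626 to 97673748). NCBP1 stood at 0.32, 0.15 and 0.43 with Tau-WT, -1.44, -1.33 and -1.51 with Tau-K174Q and 0.16 on average with Tau-S199E. Its difference between Tau-K174Q and Tau-S199E was -1.59 (SE 0.38, adjusted p 0.195), which did not pass. The proteasome activator PSME2, ADCY6, APOLD1, the mitotic checkpoint kinase BUB1B and TMEM18 followed, with -1.23, -1.19, -1.19, -1.12 and -1.10, and NKRF and ZZEF1 with 1.04 and 1.03. None of these passed (adjusted p 0.26 to 0.354). The genes from NCBP1 on were chosen by the size of this difference after the values were seen.

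**Figure D4:**
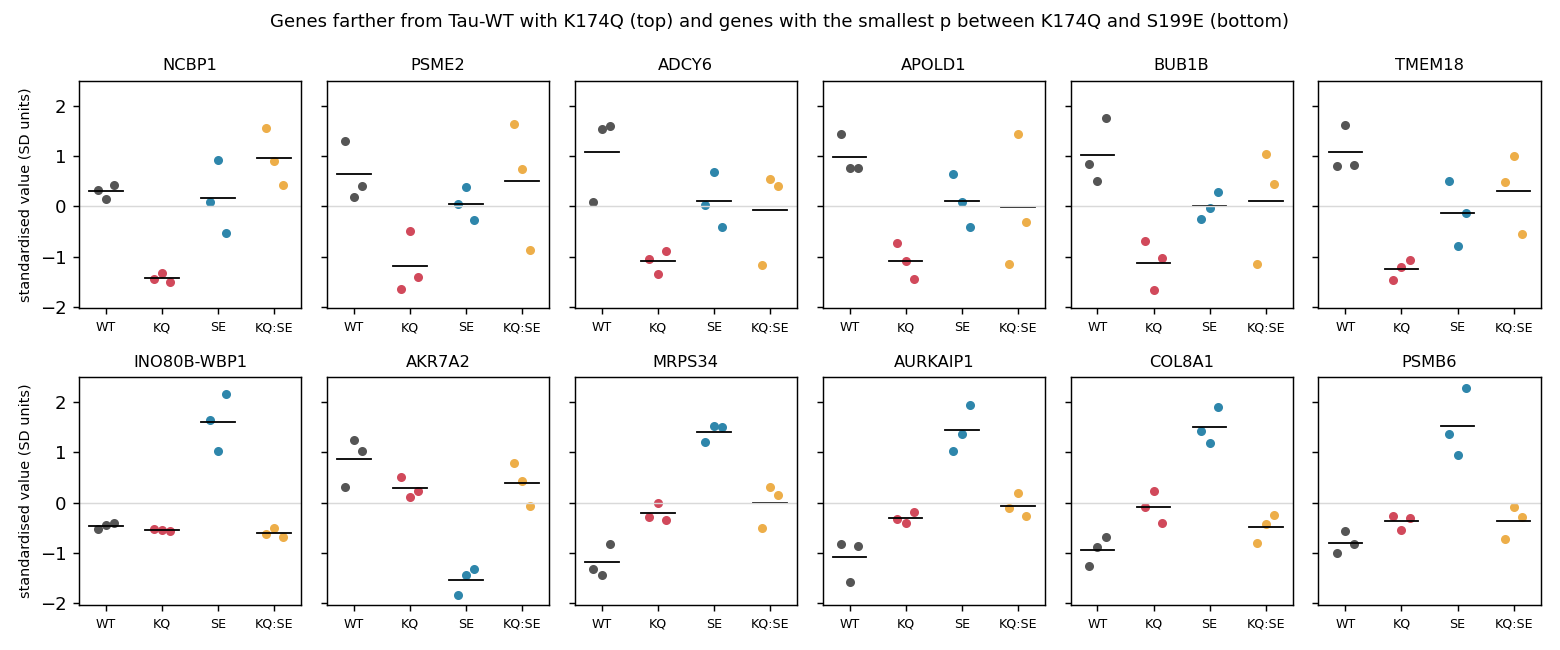
Standardised values (SD units) of each library, with a line at the mean, for Tau-WT (WT), Tau-K174Q (KQ), Tau-S199E (SE) and Tau-K174Q:S199E (KQ:SE). In the top row Tau-K174Q lies farther from Tau-WT than Tau-S199E does (NCBP1 by 1.59), and in the bottom row Tau-S199E stands apart, with INO80B-WBP1 the gene that passed.

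The genes were also read by function in 29 lists written from textbook knowledge, of which 27 had members in the table, with 390 genes in all. No listed gene passed over the 12 libraries. Counts of passing genes below are those of the fit on the 6 libraries, to be read against 27.7% of all genes higher and 21.2% lower, and counts of genes whose libraries did not overlap against 43.6% and 37.2%. These shares come from the values as deposited, and with library medians at 0 the genes without overlap were more often lower (714) than higher (569). The median difference of all genes was 0.575. For Tau-S199E against the same Tau-WT libraries it was 1.41. In every list but the aminoacyl-tRNA synthetases (0.10), the Tau-S199E median had the sign of the Tau-K174Q median. It was 2.16 for oxidative phosphorylation, 1.74 for sterol and fatty acid synthesis, -1.40 for G2/M and 1.46 for NF-kB genes. The directions of the list medians below are therefore mostly not particular to Tau-K174Q.

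Genes of sterol and fatty acid synthesis were mostly higher with Tau-K174Q. Of 43 listed, 10 were in the table; 7 lay wholly above and 2 wholly below Tau-WT, 6 and 1 passed, and the median was 1.46. ACACA, the acetyl-CoA carboxylase that commits carbon to fatty acids, stood at -0.83, -1.13 and -2.09 with Tau-WT and at 1.12, 0.82 and 0.54 with Tau-K174Q. The desaturase SCD (1.90) and the sterol oxidase MSMO1 (1.87) passed higher, while NSDHL of the same pathway passed lower (-1.66). FADS1, another desaturase, stood 1.60 below Tau-WT and did not pass (adjusted p 0.0579).

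Of 81 nuclear genes of oxidative phosphorylation, 31 were in the table, with 25 means higher and 6 lower. The libraries did not overlap in 18 and 3, and 10 passed higher and 0 lower (median 1.12). NDUFC1, a subunit of complex I, stood at -1.62, -0.66 and -1.45 with Tau-WT and at 1.01, 0.83 and 0.78 with Tau-K174Q. NDUFB6, also of complex I, differed by 1.86 and ATP5F1B, the catalytic beta subunit of ATP synthase, by 1.77. Of the 3 mitochondrially encoded transcripts in the table, MT-CO3 passed higher (0.59), MT-ND5 passed lower (-1.31), and MT-CO2 (1.30) did not pass, with 1 Tau-WT library at -0.13. In limma over the 12 libraries the adjusted p was 0.271 for MT-CO3 and 0.0674 for MT-CO2. With library medians at 0 the MT-CO3 difference was 0.264.

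The 84 mitochondrial ribosomal proteins had 25 members in the table, 10 passing higher and 6 lower (median 0.98). MRPS11 (2.0) and MRPL13 (1.92) were the highest and PTCD3 (-1.91), a protein of the small mitochondrial subunit, the lowest. Of 27 glycolysis genes, 9 were in the table, 2 passed higher and 0 lower: the glucose transporter SLC2A1 (1.57) and the phosphofructokinase PFKM (1.32). Hexokinase HK2 stood 1.51 higher and PFKL, the paralog of PFKM, 1.21 lower, without passing.

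Genes of the translation machinery went in both directions, as did the table as a whole (27.7% passed higher and 21.2% lower). Of 83 cytosolic ribosomal proteins, 32 were in the table, and 9 passed higher and 6 lower (median 1.07). RPL23 stood at -1.14, -1.88 and -0.62 with Tau-WT and at 0.91, 0.92 and 0.72 with Tau-K174Q, and RPL7A and RPL22L1 were also higher (1.84 and 1.75). RPL22, the paralog of RPL22L1, was lower instead: its libraries were 1.29, 1.66 and 0.80 with Tau-WT and -0.85, -0.56 and 0.08 with Tau-K174Q. RPL35 (-1.52) and RPSA (-1.46) also passed lower. Ribosomal protein genes have many processed pseudogenes that can share their reads.

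Of 61 translation factors, 22 were in the table, 4 passing higher and 8 lower (median -1.0). EEF1A1, the factor that brings aminoacyl-tRNA to the ribosome, was higher (2.02), with Tau-WT at -0.85, -1.62 and -1.10 and Tau-K174Q at 1.02, 0.85 and 0.63. EEF1G, a subunit of its exchange factor, and EEF2, which drives translocation, were lower (-1.67 and -1.34). Of subunits of the initiation factor eIF3, EIF3M and EIF3E passed higher (1.83 and 1.55) and EIF3L and EIF3A lower (-1.68 and -1.57). Of 41 aminoacyl-tRNA synthetases and partners, 12 were in the table, of which 2 passed higher and 0 lower. The mitochondrial threonyl enzyme TARS2 (1.94) was one of them. MARS1 (1.77) and SARS1 (-1.71) each had 1 Tau-WT library (0.27 and -0.26) near the Tau-K174Q side and did not pass.

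Ribosome biogenesis had 29 of 119 listed genes in the table, 9 passing higher and 11 lower (median -1.29). NOP10, a component of the pseudouridylation particles, RIOK2, a kinase of the small subunit precursor, and WDR75 were higher, by 2.20, 2.18 and 2.09. The helicase DDX21 was lower, with 1.16, 1.09 and 1.05 against -0.53, -0.79 and -0.62. SBDS and EIF6, which act on the same late step of large subunit maturation, were both lower (-1.92 and -1.67), as was nucleolin, NCL (-1.35). Of 33 small nucleolar RNA host and nuclear noncoding genes, 10 were in the table, 4 passing higher and 2 lower (median 1.21). SNHG32 stood at -0.73, -1.51 and -1.19 against 1.17, 1.21 and 0.80, SNHG7 differed by 1.96 and ZFAS1 by 1.52, and SNHG29 was lower (-1.37).

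Splicing and mRNA processing was the largest list, with 40 of 141 genes in the table, 16 passing higher and 6 lower (median 0.97). HNRNPA3 stood at -1.25, -1.44 and -0.78 with Tau-WT and at 1.22, 0.92 and 0.84 with Tau-K174Q. The helicase DHX38, of the second splicing step, differed by 2.06 and the Sm protein SNRPF by 1.95. SF3B2, of the branch site complex, was lower (-1.91).

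G2/M genes were mostly lower with Tau-K174Q. Of 59 listed, 11 were in the table, 0 passed higher and 6 lower, 3 and 7 did not overlap, and the median was -1.36, the lowest of the 27 lists. BUB1B stood at 0.83, 0.49 and 1.74 with Tau-WT and at -0.69, -1.66 and -1.03 with Tau-K174Q. ANLN, a scaffold of the cytokinetic ring, had 1.17, 0.81 and 1.30 against -0.43, -0.93 and -1.43. CTCF and TPX2, a spindle assembly factor (-1.81), also passed lower. CCNB2 (1.66) and BIRC5 (1.57), both defining mitotic genes, stood higher and did not pass. In the G1/S list 12 of 67 genes were in the table, 4 passing higher and 3 lower (median 1.21). Members of the replicative helicase went in both directions: MCM2 stood at -1.20, -1.16 and -1.0 against 0.99, 0.60 and 0.70, whereas MCM3 stood at 0.70, 1.72 and 0.85 against -1.21, -1.21 and -0.42.

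Of 75 DNA repair genes, 12 were in the table, 2 passing higher and 0 lower (median 0.52). RAD51C (1.85) and PARP2 (-1.53), which had the largest differences of the list, did not pass. RNF168, the ligase recruited to DNA breaks, is not on this list and passed lower (-2.13). Of 52 p53 target and apoptosis genes, 13 were in the table, 6 passing higher and 3 lower (median 0.81). CASP9, the initiator caspase of the mitochondrial pathway, stood at -1.36, -1.07 and -1.15 against 1.22, 0.66 and 0.67. AIFM1, which acts in cell death without caspases, was also higher (1.72), as was MCL1, which protects from apoptosis (1.70), while the mitochondrial nuclease ENDOG was lower (-1.63).

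Protein quality control genes likewise went in both directions, as did all genes of the table (27.7% passed higher and 21.2% lower). Of 55 chaperone and heat shock genes, 17 were in the table, 5 passing higher and 7 lower (median 0.66). HSPA1A, an inducible Hsp70 with a near-identical neighbour that makes its reads uncertain, stood at -1.08, -1.25 and -0.99 against 1.43, 0.30 and 0.12. CCT2, of the chaperonin that folds tubulin, was higher (1.66). The Hsp90 gene HSP90AB1 was lower, with 1.77, 1.25 and 1.07 against -0.34, -0.32 and 0.04. Of 67 ubiquitin-proteasome genes, 22 were in the table, 6 passing in each direction and 12 and 10 not overlapping. The core subunit PSMA3 was higher (1.88), while the ATPase PSMC3 (-1.84), the activator PSME2 (-1.82) and the deubiquitinase USP14 (-1.77) were lower.

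Among 54 genes listed for the integrated stress response and the unfolded protein response, 13 were in the table, 5 passing higher and 3 lower (median -0.60). ATF4, the transcription factor at the end of the integrated stress response, was lower, with 1.98, 0.62 and 0.74 against -0.59, -0.73 and -0.57. The endoplasmic reticulum chaperone HSPA5 was also lower (-1.24). XBP1, the transcription factor of another branch, was higher, with -1.28, -1.15 and -1.07 against 0.26, 0.41 and 0.16, as were DERL2 (2.0) and MANF (1.87), both of the endoplasmic reticulum. Of 75 autophagy and lysosome genes, 15 were in the table, 2 passing higher and 3 lower (median 0.80). MAP1LC3B, the membrane-bound protein of autophagosomes, stood at -1.02, -1.05 and -1.21 against 1.32, 1.02 and 0.39, and ATG10, an enzyme of the conjugation system, was lower (-1.51).

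The genes closest to tau itself also went in both directions, as did the table as a whole. Of 52 tau kinases, phosphatases, acetylases and deacetylases, 9 were in the table, 2 passing higher and 2 lower (median -0.88). ABL1, a tyrosine kinase for tau, stood at -0.93, -1.11 and -0.60 against 0.81, 1.26 and 0.62. OGT, which attaches N-acetylglucosamine to tau and other proteins, was higher (1.65). The acetyltransferase CREBBP was lower (-1.09), and the casein kinase CSNK1A1 stood 1.35 lower without passing (adjusted p 0.0534). The list of 66 genes for tubulins and proteins of microtubules had 13 in the table, 3 passing higher and 1 lower (median -0.51). DYNLT1, named above as a dynein light chain, is not on this list and passed higher (2.22). The dynein light chain DYNLL1 (1.79) and the tubulin folding cofactor TBCA (1.61) were higher, and CKAP5, a microtubule polymerase, stood 1.5 lower without passing.

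In the insulin and AKT-mTOR list, 11 of 47 genes were in the table, and the 2 that passed were higher: AKT1 and RHEB, the GTPase that activates mTORC1 (1.83). Members with lower means, 7 of the 11, did not pass; MLST8, a subunit of the mTOR complexes, stood at 1.33 below Tau-WT with an adjusted p of 0.0552. The list's median, -0.96, has the opposite sign to its passing members.

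MAPT was itself in the table (chromosome 17, 45894382 to 46028334, plus strand). It stood at 0.00, 0.85 and 0.11 with Tau-WT and at -0.49, -0.51 and -0.57 with Tau-K174Q, without overlap. The difference was -0.84 (SE 0.73) and did not pass (adjusted p 0.296 in limma over 12 libraries, 0.06 over 6; exact permutation p 0.1, the smallest that 3 against 3 libraries can give). A 3′ tag need not read a transfected coding sequence. Whether the value holds reads of the construct is unknown, so it checks no label.

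Small lists added the following. Of 48 markers of the mesenchymal state of neuroblastoma, a state other than that of typical SH-SY5Y cells, 7 were in the table, 5 passing higher and 0 lower, with 6 and 1 not overlapping (median 1.41). CCN1 stood at -1.35, -1.43 and -1.07 against 0.95, 1.02 and 0.55, and SNAI2 at -0.98, -1.65 and -1.07 against 0.87, 0.08 and 0.80. The summed level of the list, as its mean over genes, ran from -0.92 to -0.55 in the Tau-WT libraries and from 0.32 to 0.43 in the Tau-K174Q libraries. TWIST2 (1.78) and TPM1 (-1.47) did not pass. The part of cell state in the other differences was not tested. Of 47 interferon and antigen presentation genes, 6 were in the table, 3 passing higher and 0 lower, with 3 and 2 not overlapping. Those passing included the peptide transporter TAP2 (1.94) and B2M (1.37). The interferon-inducible GBP1, which is not on this list, passed lower (-1.90), so the count depends on which genes were listed. IFITM1 had Tau-K174Q libraries at 0.45, 1.96 and -1.13, the last below all 3 of Tau-WT.

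Of 30 NF-kB genes, 3 were in the table: NKRF and the inhibitor NFKBIB passed in opposite directions (2.5 and -1.92), and TNFAIP2 (1.81) did not pass. Of 32 immediate early genes, 3 were in the table, and JUNB stood at -1.31, -1.64 and -0.70 against 0.93, 0.55 and 0.48. DUSP2 (1.67) and BTG1 (-1.20) did not pass. Of 23 hypoxia targets, 3 were in the table, of which SLC2A1 passed, and DDIT4 (1.48) and ADM (-1.27) did not.

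**Figure D5:**
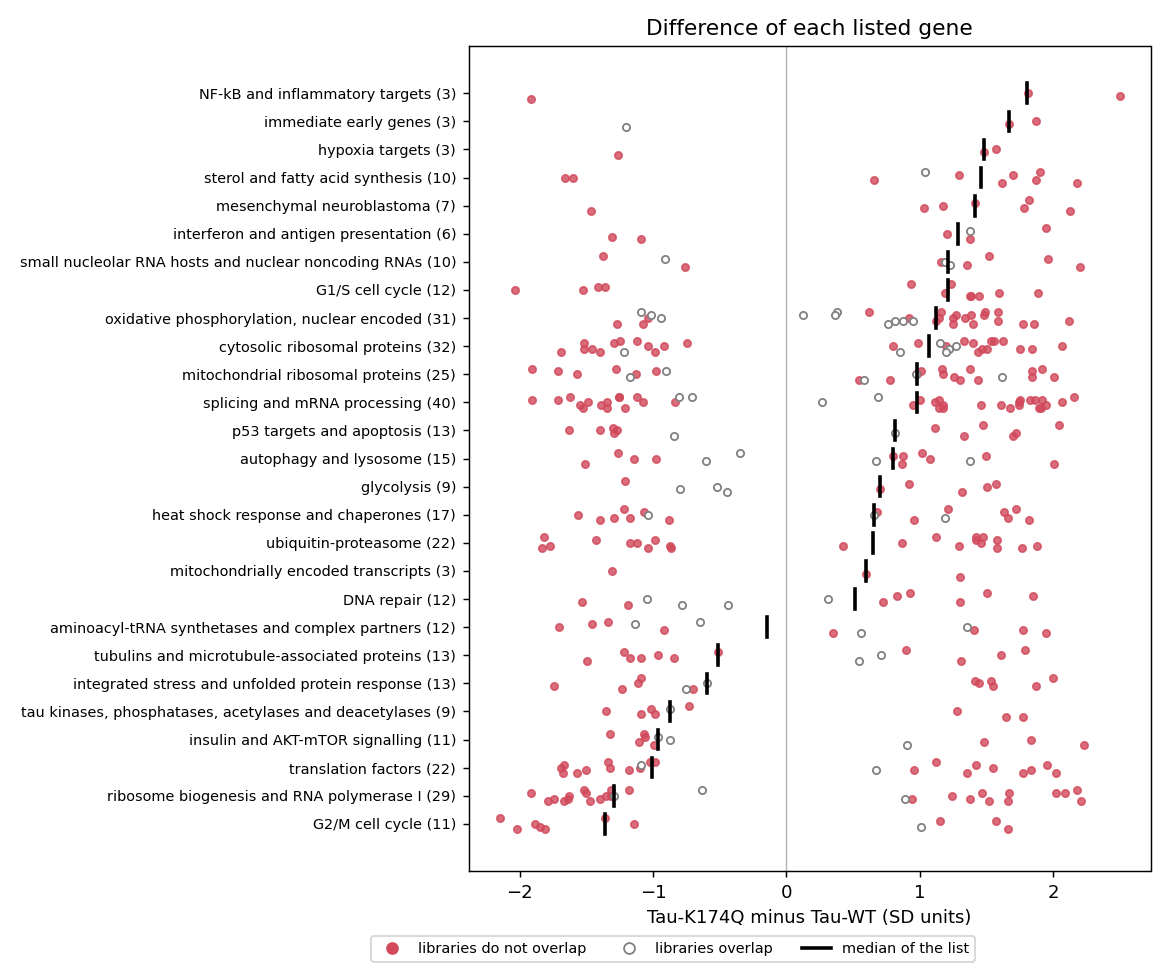
Difference between the Tau-K174Q and Tau-WT means (SD units) of each listed gene, 1 row per list with the number of its genes in the table; filled points are genes whose libraries do not overlap and the bar is the list's median. Medians run from -1.36 (G2/M) to 1.81 (the 3 NF-kB genes) and most lists hold genes on both sides of 0.

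By kind of gene, the 1585 protein-coding genes had 847 means higher and 738 lower, with 451 and 333 passing on the 6 libraries. Over all genes, 52.8% of means were higher and 47.2% lower, and 27.7% passed higher and 21.2% lower. The protein-coding genes, which make up most of the table, stood near these shares. The 45 noncoding genes other than pseudogenes were mostly lower with Tau-K174Q: 31 means were lower and 14 higher, 15 and 9 passed, and the median was -1.06. The 46 pseudogenes had 24 means higher and 22 lower, and 4 passed higher and 7 lower. Their median absolute difference of 0.847 was below that of the protein-coding genes, 1.33.

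In a small set of genes Tau-K174Q and Tau-WT were close, and 45 genes differed by under 0.5 SD units. The closest were MATR3, an RNA-binding protein of the nuclear matrix (0.05), INO80B-WBP1, NDUFA3, ADPRS (0.16), INO80B (-0.21) and the mRNA export factor NXF1 (0.22). MATR3 libraries stood at -0.54, 0.41 and 0.33 with Tau-WT and at -0.29, 0.93 and -0.29 with Tau-K174Q, so the groups overlapped.

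The genes with the largest fold changes in the authors' deposited table, whose contrast the header does not name, are described here with their standardised differences. The deposited fold change had the opposite sign to the Tau-K174Q minus Tau-WT difference in 1675 of the 1676 genes, as the interaction had. The 2 measures also differ in unit, so their sizes cannot be set against each other. In the authors' deposited table the log2 fold changes were -11.49 for the pseudogene RPL7P9, -7.64 for INO80B-WBP1 and -7.11 for SGCE, and the standardised differences between Tau-K174Q and Tau-WT were 0.33, -0.08 and 1.40. At the other end they were 10.61 for the read-through gene ZFP91-CNTF and 7.71 for the splicing factor U2AF1 in the authors' deposited table. ZFP91-CNTF differed by -1.61, with Tau-WT library 1 at 2.48 and the others at 0.38 and 0.41. In U2AF1 only Tau-K174Q library 4 (-1.18) was low, and libraries 5 and 6 (0.71 and 0.83) lay at the level of Tau-WT (0.73, 0.84 and 0.92). TMEM160 likewise had 1 Tau-WT library at 2.82 and the others at -0.14 and 0.07.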

How the data were processed

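Polyadenylated RNA was extracted 24 h after transfection, and libraries were made from 400 ng of RNA each with a QuantSeq 3′ FWD kit, per the labels' protocols. STAR 2.5.3a, RSEM 1.2.31, DESeq2 and the build GRCh38 are named in the submitters' processing notes without their roles. The sources used here do not give the transform, gene filter, strand setting or clustering. In the table the authors deposited, the 12 library values are a score, standardised per gene over the 12 libraries: gene means are 0 within 5.7e-15 and values run from -2.58 to 3.06. It also holds the authors' log2 fold change and the authors' adjusted p-value, named per the file headers without their contrast, and a cluster number.

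Construct and library number come from the column names. Counts were not used, so no count model, pseudocount or low-count filter was applied. Each gene was fitted with limma 3.58.1 (R 4.3.3), a mean per construct over 12 libraries and ordinary residual variance (8 residual degrees of freedom; 4 with 6 libraries), two-sided, Benjamini-Hochberg over 1676 genes, threshold 0.05. The step was tested on simulated data with equal spread in all constructs and shifts with Tau-K174Q only. That test does not cover the unequal spread of the real libraries. Alternatives were moderated variances, the 6 libraries alone, each library left out, library medians at 0 and restandardising over 6 libraries. Leaving out Tau-S199E or Tau-K174Q:S199E libraries was added after the data were seen, as was the 9-library fit. The members and gene lists were chosen with earlier results of these data known.

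Named genes are the 12 with the smallest p in each direction, the 3 largest differences of each list and members its result turns on, the 6 in each direction with the smallest p against Tau-S199E, the 5 largest per cluster, the 6 closest means, and MAPT with the largest deposited fold changes. Other names were chosen after their values were seen, and a few genes that the rule takes are not reported here. Symbols were matched by Ensembl identifier (1675 of 1676 matched; 17 genes have no symbol), and coordinates are from GENCODE 29 on GRCh38.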

Additional observations from a re-analysis of the deposited data

Results flagged for a closer look

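INO80B-WBP1 stood out because Tau-K174Q and Tau-S199E differed from each other by a test of that difference: Tau-K174Q minus Tau-S199E was -2.15 SD units (adjusted p 0.0303 by limma over 12 libraries), with all 3 Tau-S199E libraries above all 3 of Tau-K174Q. Tau-S199E was 2.06 above Tau-WT and Tau-K174Q 0.08 below it. The gene did not pass with moderated variances or on the 6 libraries of the pair. Nor did it pass when any 1 Tau-WT or Tau-K174Q library, or Tau-S199E library 10, was left out. The fit pools the spread of the 4 constructs. The SD of this gene was 0.57 with Tau-S199E, against 0.02 with Tau-K174Q, 0.06 with Tau-WT and 0.09 with Tau-K174Q:S199E.

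The effect of K174Q differed with and without S199E in 1625 of 1676 genes (interaction, adjusted p under 0.05 by limma). The genes of the table appear to have been chosen for such a difference before deposit, so this count restates the choice.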

How the results depend on the processing

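The count of genes passing between Tau-K174Q and Tau-WT, 0 over 12 libraries, was 819 on the 6 libraries alone, 708 on the 9 libraries without Tau-K174Q:S199E and 1004 with moderated variances. Leaving out 1 library gave 0 to 675: 675 without Tau-K174Q:S199E library 18, 48 without library 16 and 0 without any other. The count between Tau-K174Q and Tau-S199E, 1, was 0 on the 6 libraries of the pair, 0 with moderated variances and 0 to 1 with a library left out. The cause was not tested. Setting library medians to 0 moved the cluster differences to -1.49, -1.81, 1.47 and 0.77 in clusters 1 to 4, and restandardising over 6 libraries moved clusters 1 and 4 to -1.49 and 1.46.

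Of 135 named genes besides MAPT, 112 passed with moderated variances and 92 on the 6 libraries. With library medians at 0, 6 reversed: MATR3 (-0.28), NDUFA3 (-0.21), ADPRS (-0.17), NXF1 (-0.11), PPIAP22 (-0.07) and RPL7P9 (-0.004). With 1 library left out, 3 reversed: MATR3 ran from -0.355 to 0.256, NDUFA3 from -0.259 to 0.375 and ADPRS from -0.063 to 0.348. No list median changed sign with library medians at 0. No paired analysis was possible because the columns carry library numbers and not the replicate numbers of the labels. Depth is unknown, so no limit from depth can be given.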
